A study of Mus musculus with 13 samples.

Results

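The miR-15 and miR-16 seed family is the set of mature mouse miRNAs mmu-miR-15a-5p, mmu-miR-15b-5p, mmu-miR-16-5p, mmu-miR-195a-5p, mmu-miR-322-5p and mmu-miR-497a-5p, taken by name from the 1907 miRNAs counted in plasma. All 6 members had counts, and 5 of them were among the 368 miRNAs that passed the filter on low counts. miR-322-5p did not pass. The mmu- prefix of the mouse names is left out from here on. Small RNA was sequenced from the plasma of 13 mice, with 1 library per mouse, in 4 groups. The Givinostat group (3 mice) held mdx mice (C57BL10ScSn-Dmdmdx/J) given 37.5 mg/kg Givinostat, an inhibitor of histone deacetylases, by gavage on 5 days a week for 15 weeks. The vehicle group (4 mice) held mdx mice gavaged on the same schedule with 0.5% methylcellulose, which the paper names as the carrier of Givinostat too. The naive mdx group (3 mice) and the naive wt group (3 mice, C57BL/10J) received no treatment. The paper states that naive mice still went through the functional tests, which were grip strength and treadmill running. mdx mice carry a point mutation in the dystrophin gene and lack the protein, so the treated, vehicle and naive mdx mice share that defect, and no wt mouse was gavaged. The strain label reads C57BL/10J for every sample, and the groups were taken from the sample titles.

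miRNAs guide a silencing complex to messenger RNAs mainly through the seed, bases 2 to 8 of the mature strand, so members with 1 seed can repress overlapping sets of targets. The family is best known for restraining the cell cycle through cyclins, their kinases and CDC25 phosphatases, and for lowering the survival factor BCL2. In human chronic lymphocytic leukaemia the MIR15A and MIR16-1 locus is often deleted. In mouse, miR-195a rises in heart muscle cells as they stop dividing after birth, miR-195a and miR-497a help to keep muscle stem cells quiescent, and miR-322 promotes the exit of myoblasts from the cell cycle. miR-16-5p is abundant in red blood cells and is widely used as a reference in plasma assays.

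The mature sequences are shown because the seed is what the members share and the rest is what sets them apart. They come from RefSeq (GRCm38.p6), 5′ to 3′, with the seed in capitals, and all 6 members were matched.
miR-16-5p: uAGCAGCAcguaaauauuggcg
miR-195a-5p: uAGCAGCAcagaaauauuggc
miR-15a-5p: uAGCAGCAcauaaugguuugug
miR-15b-5p: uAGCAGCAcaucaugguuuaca
miR-497a-5p: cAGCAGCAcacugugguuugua
miR-322-5p: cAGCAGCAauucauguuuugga
The 7 bases of the seed stood at positions 2 to 8 of 10 of the 1679 mature miRNAs in the sequence table (0.596%). The 4 that are not members (miR-195b, miR-6342, miR-6353 and miR-6419) had 0 counts in all 13 libraries, which allows up to 1.03 to 2.57 CPM in a library, the level that 3 counts would give (CPM is a count scaled to a common library size). Aligned from their first base, miR-16-5p and miR-195a-5p had the same base at 19 of 21 positions, and miR-15a-5p and miR-15b-5p at 18 of 22. miR-16-5p and miR-497a-5p were the same at 11 of 22, most of them in the seed. miR-195a-5p has 21 bases and the others have 22, so length hardly enters a comparison of their levels, although the ligation steps of a small RNA library do not capture all sequences alike.

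The members come from 4 places in the genome, given here on GRCm38. Mir15b lies at chr3:69009772-69009835 and Mir16-2 at chr3:69009902-69009996, both on the plus strand in an intron of Smc4, a condensin subunit, with 66 bases between them. Mir16-1 lies at chr14:61631880-61631972 and Mir15a at chr14:61632027-61632110, on the minus strand within the long noncoding gene Dleu2. Mir497 lies at chr11:70234717-70234800 and Mir195a at chr11:70235042-70235135, on the plus strand and 241 bases apart. Mir322 lies at chrX:53054255-53054349 on the minus strand. The mature miR-16-5p of the chromosome 3 and chromosome 14 hairpins is the same sequence, so its counts cannot be assigned to either.

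Counts per library ranged between 1167161 and 2899315. In the comparisons with naive wt mice, plasma make-up differed beyond this family: the liver miRNA miR-122-5p was 2.97% to 6.19% of the counts in Givinostat mice, 2.98% to 16.1% in vehicle mice, 1.37% to 10.6% in naive mdx mice and 37.6% to 64.6% in naive wt mice. The 4 muscle miRNAs miR-1a-3p, miR-133a-3p, miR-133a-5p and miR-206-3p were 37.9% to 46.7%, 35.4% to 42.5%, 28.2% to 39.6% and 0.703% to 2.08% of the counts in the same 4 groups. Levels are therefore given as CPM after trimmed-mean (TMM) scaling, and calls of the family, its 3p arms and the related and red cell miRNAs that were lost under another scaling are given beside them. These levels are relative to the other counts of a library and are not amounts per volume of plasma. A lower level cannot tell less of a miRNA from more of the others. It also cannot tell fewer releasing cells from less miRNA released per cell.

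miR-16-5p dominated the family. It held 18857 of the 21055 family counts (89.6%), against 3.78% for miR-195a-5p, 3.59% for miR-15b-5p, 2.31% for miR-15a-5p, 0.456% for miR-497a-5p and 0.309% for miR-322-5p. Its share of the family counts lay between 86.0% and 93.6% in every mouse, so the family sum is essentially a measure of miR-16-5p. The sum was 0.107% ± 0.028 of all counts in Givinostat mice (SD, n = 3), 0.0847% ± 0.0165 in vehicle mice (n = 4), 0.0933% ± 0.0188 in naive mdx mice (n = 3) and 0.132% ± 0.053 in naive wt mice (n = 3). The ranges of the 4 groups overlapped. With miR-122-5p and the 4 muscle miRNAs taken out of the total, the sum was 0.168% to 0.230% in Givinostat mice, 0.110% to 0.189% in vehicle mice, 0.125% to 0.174% in naive mdx mice and 0.251% to 0.320% in naive wt mice. On that basis every naive wt mouse was above all other mice, and naive mdx mice had a lower mean than vehicle mice, the reverse of the order on the whole library.

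The order of the members below miR-16-5p was not the same in the 4 groups. In Givinostat mice miR-15b-5p (42.6 ± 13.3 CPM, SD, n = 3) and miR-195a-5p (38.8 ± 3.2) were followed by miR-15a-5p (21.2 ± 8.4). In vehicle mice these 3 members had nearly the same level, with 22.6 ± 7.4 CPM for miR-15b-5p, 23.6 ± 8.6 for miR-195a-5p and 20.8 ± 8.6 for miR-15a-5p (n = 4). In naive mdx mice miR-15a-5p was the highest of the 3 at 32.4 ± 12.1 CPM, within the spread of miR-15b-5p (29.8 ± 9.3) and miR-195a-5p (25.1 ± 8.7, n = 3). In naive wt mice miR-195a-5p (68.4 ± 17.2 CPM) and miR-15b-5p (55.5 ± 9.8) overlapped, and miR-15a-5p lay below both at 22.4 ± 6.4 (n = 3). miR-497a-5p and miR-322-5p averaged under 8 CPM in every group and overlapped each other in each.

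**Figure D1:**
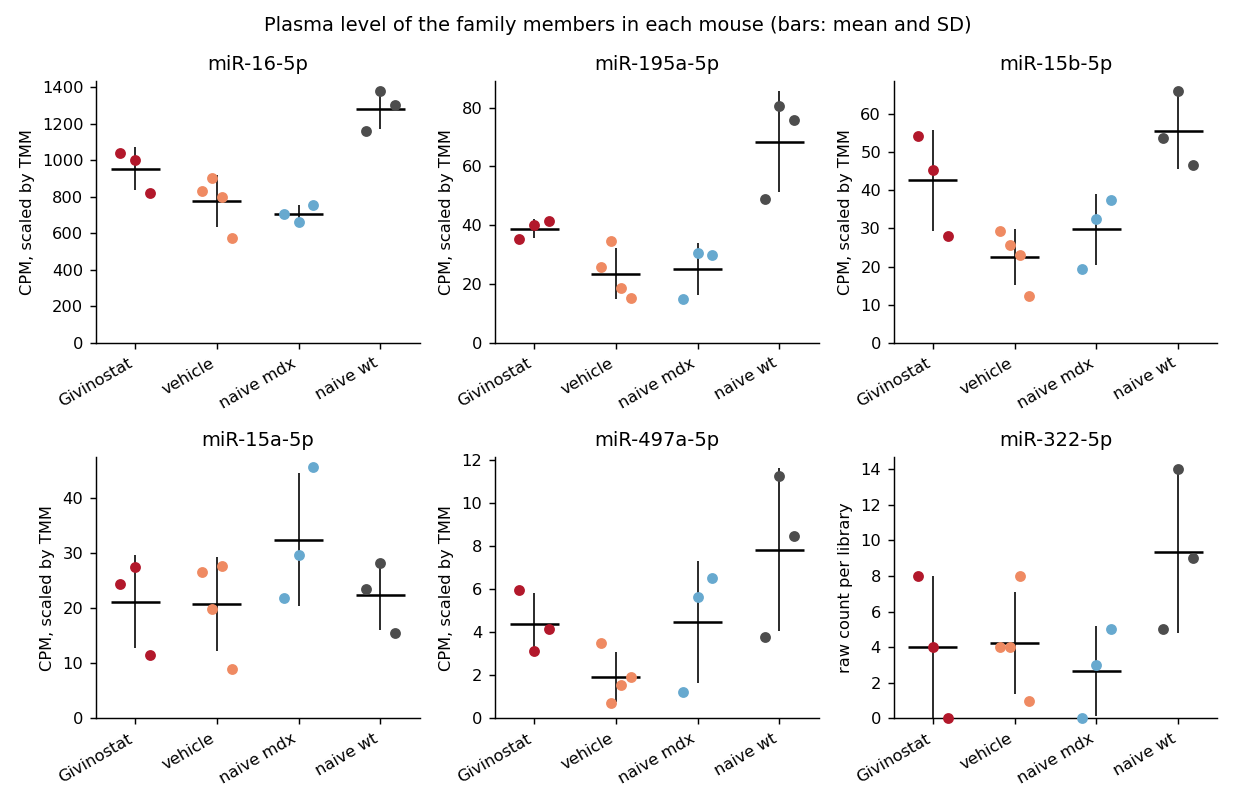
Level of each member in each mouse, by group from Givinostat to naive wt; points are mice, the line is the mean and the bar the SD. The y axis is CPM after TMM scaling, except for miR-322-5p, where it is the raw count. The 3 naive wt mice stand above all vehicle and naive mdx mice for miR-16-5p, miR-195a-5p and miR-15b-5p, and within the range of the others for miR-15a-5p.

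The comparison of naive mdx with naive wt mice asks how the family differs in dystrophic animals without any handling by gavage. miR-16-5p and miR-195a-5p fell in naive mdx mice, to 0.552 and 0.367 of the naive wt level, while miR-15a-5p did not follow. The fall of miR-16-5p depended on the scaling. Of the 5 tested members 2 passed, both lower, where 16.6% of all tested miRNAs were lower and 43.5% passed in either direction (edgeR quasi-likelihood test, Benjamini-Hochberg adjusted p under 0.05 over 368 miRNAs). The median log2 fold change was -0.86 over the tested members and 0.04 over all tested miRNAs. In 3 of the 5 members the groups did not overlap, which was so for 57.6% of all tested miRNAs in either direction and for 27.7% with naive mdx below.

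miR-16-5p had 708, 661 and 753 CPM in naive mdx mice 36, 37 and 39, against 1162, 1379.8 and 1304 CPM in naive wt mice 86, 89 and 95. Every naive mdx mouse was below every naive wt mouse. The difference was a log2 fold change of -0.86 (SE 0.22, 95% interval -1.33 to -0.39, adjusted p = 0.00566 in edgeR). With each library scaled to its total instead, the values were 968, 621 and 891 CPM in naive mdx mice and 877, 1691 and 956 CPM in naive wt mice. On that scale the groups overlapped, the log2 fold change was -0.51, and the edgeR adjusted p was 0.27.

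miR-195a-5p had 15.03, 30.4 and 29.9 CPM in naive mdx mice, against 48.8, 80.7 and 75.7 CPM in naive wt mice. The groups stood apart, also on library totals, where naive mdx mice had 20.6, 28.6 and 35.3 CPM and naive wt mice 36.8, 98.9 and 55.5 CPM. The log2 fold change was -1.44 (SE 0.35, 95% interval -2.19 to -0.70, adjusted p = 0.0038 in edgeR), and it was past the threshold under all 5 scalings.

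miR-15b-5p had 19.4, 32.5 and 37.5 CPM in naive mdx mice and 53.8, 66.0 and 46.6 CPM in naive wt mice. No naive mdx mouse reached the lowest naive wt mouse, but the log2 fold change of -0.89 (SE 0.36) missed the threshold in edgeR (adjusted p = 0.0538). It passed in DESeq2 fitted to the 4 groups (adjusted p = 0.0455), under 3 of the 4 other scalings, and in edgeR without naive mdx mouse 39 (adjusted p = 0.0466). On library totals the groups overlapped, at 26.6 to 44.3 CPM in naive mdx mice and 34.1 to 80.9 CPM in naive wt mice.

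miR-15a-5p, the partner of miR-16-5p at the chromosome 14 locus, had 21.9, 29.7 and 45.6 CPM in naive mdx mice and 23.4, 28.2 and 15.5 CPM in naive wt mice. The groups overlapped, with naive mdx mouse 39 the highest of all 13 mice. A log2 fold change of 0.54 was found, with a 95% interval of -0.36 to 1.44 (edgeR adjusted p = 0.296). miR-497a-5p had 2, 8 and 12 counts in naive mdx mice and 6, 20 and 18 in naive wt mice, with a log2 fold change of -0.80 (95% interval -1.92 to 0.31, adjusted p = 0.213 in edgeR). At such counts a change of the size seen for miR-195a-5p lay within the interval.

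The comparison of vehicle with naive wt mice sets gavaged mdx animals against the same 3 naive wt mice, so it shares its controls with the one before and is not an independent repeat. miR-15b-5p, miR-16-5p, miR-195a-5p and miR-497a-5p fell in vehicle mice, to 0.407, 0.604, 0.344 and 0.252 of the naive wt level in that order, and miR-15a-5p did not differ detectably. These 4 of 5 tested members compare with 23.1% of all tested miRNAs that were lower and 47.3% that passed in either direction. Among the 4, miR-497a-5p had only 1 to 5 counts in vehicle mice and was not kept by a stricter filter (a mean of 10 CPM or more). The groups did not overlap for the same 4 members, as for 52.2% of all tested miRNAs in either direction and 25% with vehicle below. The median log2 fold change was -1.30 over the members and -0.11 over all tested miRNAs.

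miR-195a-5p had 25.8, 34.6, 18.5 and 15.4 CPM in vehicle mice 40, 41, 42 and 43, against the 48.8 to 80.7 CPM of naive wt mice. The change was -1.54 on the log2 scale (SE 0.33, 95% interval -2.23 to -0.85, edgeR adjusted p = 0.00118). miR-15b-5p had 29.3, 25.7, 23.1 and 12.2 CPM in vehicle mice, against 46.6 to 66.0 CPM in naive wt mice. All 4 vehicle mice lay below the naive wt mice, and the log2 fold change was -1.30 (SE 0.34, edgeR adjusted p = 0.00512).

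miR-16-5p had 829, 900.2, 798 and 572 CPM in vehicle mice, against 1162 to 1379.8 CPM in naive wt mice, and again no vehicle mouse reached the naive wt range. On the log2 scale the difference was -0.73 (SE 0.20, 95% interval -1.16 to -0.29, edgeR adjusted p = 0.00834). The call was lost on library totals (log2 fold change -0.60, adjusted p = 0.149 in edgeR) and without the filter on low counts (-0.68, adjusted p = 0.0858). The groups also overlapped on library totals, at 636 to 954 CPM in vehicle mice and 877 to 1691 CPM in naive wt mice. miR-497a-5p had 5, 1, 2 and 3 counts in vehicle mice and 6, 20 and 18 counts in naive wt mice. The highest vehicle mouse (3.49 CPM) was just under the lowest naive wt mouse (3.80 CPM), and on library totals these 2 mice changed places (3.50 and 2.87 CPM). A log2 fold change of -1.99 (SE 0.56, edgeR adjusted p = 0.00801) rests on these small counts.

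miR-15a-5p had 26.5, 19.9, 27.7 and 8.97 CPM in vehicle mice, inside and around the 15.5 to 28.2 CPM of naive wt mice. The difference was -0.11 on the log2 scale, with a 95% interval of -0.97 to 0.75 (edgeR adjusted p = 0.827), which leaves room for a fall as large as that of miR-16-5p. Its sign turned when vehicle mouse 43 or naive wt mouse 86 or 89 was left out.

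**Figure D2:**
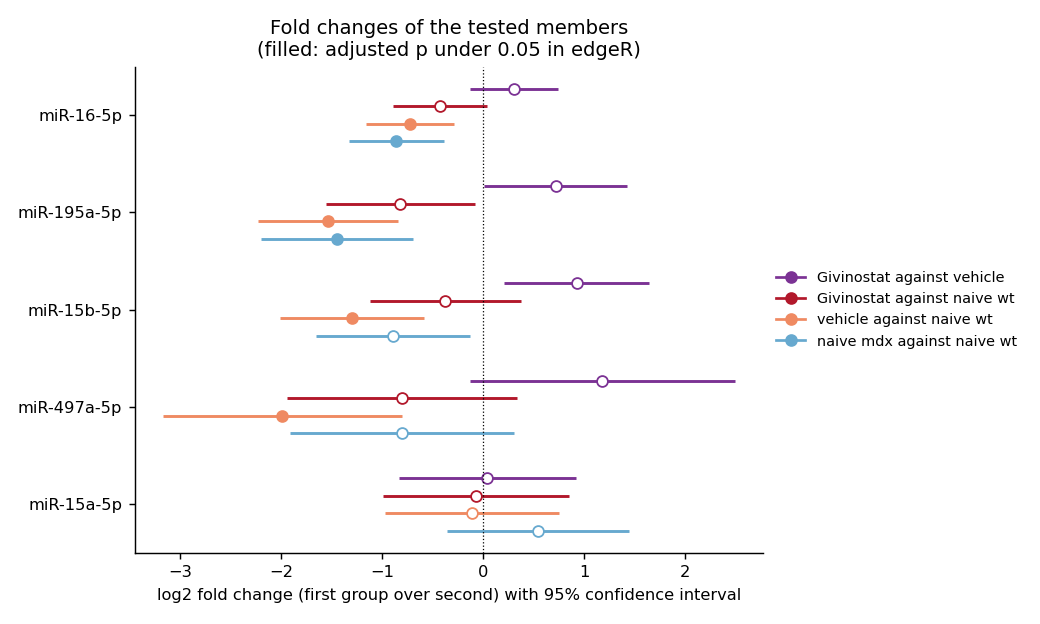
Log2 fold change of each tested member in 4 comparisons, first group over second, with its 95% interval; filled points have an edgeR adjusted p under 0.05. The 6 filled points are all below 0 and belong to the vehicle and naive mdx comparisons with naive wt. Those 2 comparisons and the Givinostat comparison share the 3 naive wt mice.

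Givinostat mice were also set against naive wt mice. No tested member passed in edgeR (0 of 5, where 34.2% of all tested miRNAs passed and 11.7% were lower). At an unadjusted p under 0.05 there was 1 member, miR-195a-5p, with the lower level in Givinostat mice, where 45.1% of all tested miRNAs stood in either direction and 18.8% in that one. It had 35.2, 39.9 and 41.4 CPM in Givinostat mice 31, 34 and 35, below the 48.8 to 80.7 CPM of naive wt mice. Its difference of -0.82 on the log2 scale (SE 0.35, edgeR adjusted p = 0.0778) passed when only these 2 groups were fitted, with an adjusted p of 0.0298 in edgeR and 0.0494 in DESeq2, while DESeq2 on the 4 groups called 0 members.

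miR-16-5p had 1041, 1002 and 820.3 CPM in Givinostat mice, all below the lowest naive wt mouse, and its log2 fold change was -0.43 (95% interval -0.89 to 0.04, edgeR adjusted p = 0.149). After TMM scaling the groups did not overlap for miR-16-5p and miR-195a-5p, as for 53.8% of all tested miRNAs in either direction and 25.3% with Givinostat below. On library totals both overlapped. miR-16-5p then had 717 to 1214 CPM in Givinostat mice against 877 to 1691 CPM in naive wt mice. miR-195a-5p had 36.2 to 41.1 CPM against 36.8 to 98.9 CPM in the same groups. miR-15b-5p had 54.3, 45.4 and 28.1 CPM in Givinostat mice and overlapped naive wt mice, with a log2 fold change of -0.37 (95% interval -1.12 to 0.38). miR-15a-5p, at 24.5, 27.4 and 11.6 CPM in Givinostat mice, had a log2 fold change of -0.07 (95% interval -0.99 to 0.85). Its sign turned on library totals and in other fits.

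The comparison of Givinostat with vehicle mice is the treatment contrast. No tested member passed in edgeR (0 of 5, where 0.272% of all tested miRNAs, a single miRNA, passed), and DESeq2 likewise called 0 members. At an unadjusted p under 0.05 there were 2 members, miR-15b-5p and miR-195a-5p, both with higher values in Givinostat mice, beside 6.79% of all tested miRNAs in either direction and 4.08% in that one. The median log2 fold change was 0.72 over the members and -0.02 over all tested miRNAs.

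miR-195a-5p had 35.2, 39.9 and 41.4 CPM in Givinostat mice, against 25.8, 34.6, 18.5 and 15.4 CPM in vehicle mice. It was the 1 member whose groups did not overlap, as for 7.61% of all tested miRNAs (4.35% with Givinostat above), and the lowest Givinostat mouse was only just above vehicle mouse 41. The log2 fold change was 0.72 (SE 0.33, 95% interval 0.01 to 1.43, unadjusted p = 0.0465, adjusted p = 0.71 in edgeR). On library totals the gap closed, since the lowest Givinostat mouse had 36.2 CPM and vehicle mouse 41 had 36.6 CPM.

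miR-15b-5p had 54.3, 45.4 and 28.1 CPM in Givinostat mice, against 29.3, 25.7, 23.1 and 12.2 CPM in vehicle mice. Givinostat mouse 35 fell inside the vehicle range and the other two stood above it. The log2 fold change was 0.92 (SE 0.34, 95% interval 0.20 to 1.65, unadjusted p = 0.0153, adjusted p = 0.443 in edgeR). miR-497a-5p had 10, 4 and 5 counts in Givinostat mice and 5, 1, 2 and 3 counts in vehicle mice, with a log2 fold change of 1.18 (95% interval -0.13 to 2.49). miR-16-5p differed by 0.30 (95% interval -0.13 to 0.74) and miR-15a-5p by 0.04 (95% interval -0.83 to 0.92) on the log2 scale, both with overlapping groups.

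Vehicle and naive mdx mice differ by the gavage and by the methylcellulose given with it. No tested member passed in edgeR, where 0% of all tested miRNAs did, and DESeq2 called 0 as well. No member had an unadjusted p under 0.05, beside 4.62% of all tested miRNAs, and no member separated the groups (2.17% of all tested miRNAs did). The value farthest from 0 was that of miR-497a-5p, with a log2 fold change of -1.18 (95% interval -2.46 to 0.10), and the narrowest interval that of miR-16-5p, at 0.13 (95% interval -0.31 to 0.57).

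A ratio of 2 members within a library does not depend on how libraries are scaled. Of the 10 pairs among the 5 tested members, the groups did not overlap for 3 pairs between naive mdx and naive wt, 4 between vehicle and naive wt, 1 between Givinostat and vehicle, and 0 in the other two comparisons. The share over all pairs of tested miRNAs was not computed, so these counts cannot be read as particular to the family. Single miRNAs did not overlap in 57.6%, 52.2% and 7.61% of all tested in the first 3 of these comparisons. The ratio of miR-15a-5p to miR-15b-5p, picked after the values were seen, separated 3 of these pairs of groups and is given as a description. Its log2 value was -1.25 to -0.72 in Givinostat mice, -0.43 to 0.26 in vehicle mice, -0.13 to 0.28 in naive mdx mice and -1.57 to -1.19 in naive wt mice. Vehicle and naive mdx mice thus had about as much miR-15a-5p as miR-15b-5p, while every Givinostat and naive wt mouse had clearly less. The mean log2 ratio was 1.43 higher in naive mdx than in naive wt mice and 1.16 higher in vehicle than in naive wt mice. Givinostat minus vehicle mice gave a difference of -0.87, and Givinostat and naive wt mice overlapped. With 3 against 3 mice an exact two-sided permutation test cannot go below 0.1, and with 3 against 4 not below 0.0571, so no p is given.

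The ratio of miR-15a-5p to miR-16-5p, the pair of the chromosome 14 locus, was -4.99 to -4.04 in naive mdx mice against -6.37 to -5.60 in naive wt mice on the log2 scale, without overlap. In vehicle mice it was -5.95 to -4.83 and overlapped both. The ratio of miR-15b-5p to miR-16-5p, the pair of the chromosome 3 locus, was -5.52 to -4.80 in vehicle mice against -4.80 to -4.38 in naive wt mice, with the nearest mice all but touching, and it overlapped between naive mdx and naive wt mice.

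**Figure D3:**
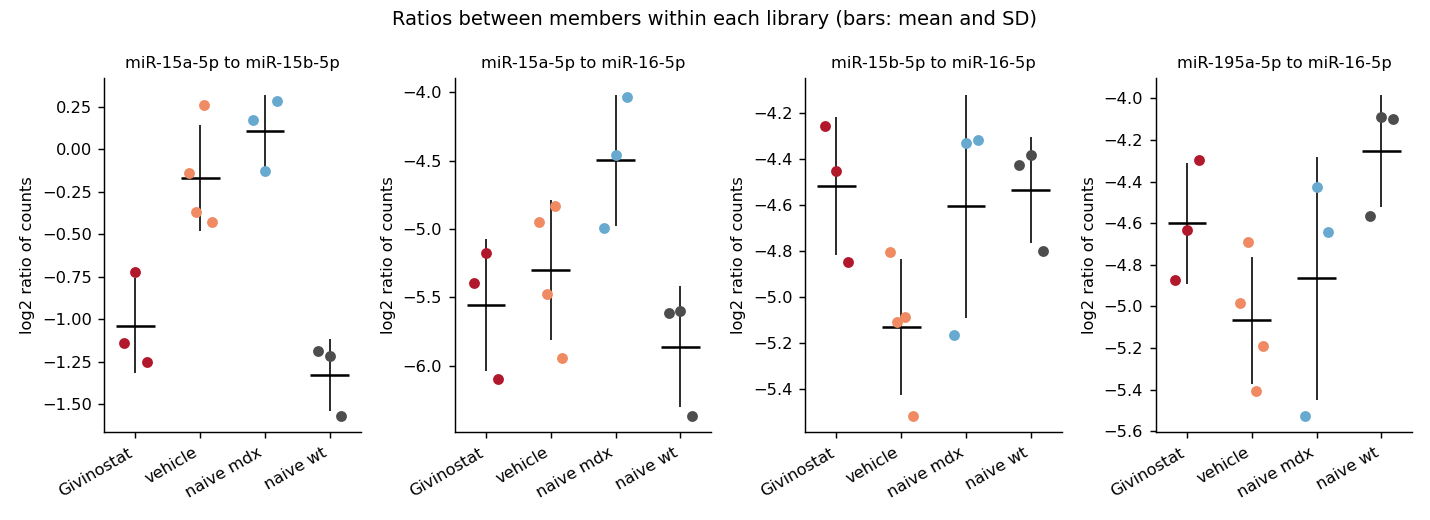
Log2 ratio of counts between members within each library, with 0.5 added to each count; points are mice, the line is the mean and the bar the SD. In the first panel the 3 Givinostat mice (-1.25 to -0.72) and 3 naive wt mice (-1.57 to -1.19) lie below the 4 vehicle and 3 naive mdx mice (-0.43 to 0.28).

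The opposite (3p) arms of the hairpins carry other seeds and show which hairpins were read. miR-16-1-3p and miR-16-2-3p differ in sequence, as shown here with their own seeds in capitals.
miR-16-1-3p: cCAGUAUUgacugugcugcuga
miR-16-2-3p: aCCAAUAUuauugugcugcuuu
miR-16-1-3p had 212 counts over the 13 libraries, and 7 to 28 in each. miR-16-2-3p had 25 counts in all and 0 to 6 in each. The arm of the chromosome 14 hairpin was thus the more abundant by 8.48 times, although the share of arms that survives need not be the same at both loci. miR-16-1-3p did not pass in any comparison, with a log2 fold change of -0.55 between naive mdx and naive wt mice (95% interval -1.44 to 0.33).

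The hairpins also differed in which arm was found in plasma. The miR-15b hairpin gave 757 counts of miR-15b-3p and 756 of miR-15b-5p, and the miR-195a hairpin 729 of miR-195a-3p and 795 of miR-195a-5p, so that both arms had similar totals. The miR-497a hairpin gave 2 counts of miR-497a-3p against 96 of miR-497a-5p. miR-15a-3p had 41 counts against 486 of miR-15a-5p, and 20 of the 41 were in Givinostat mouse 35 alone, where miR-15a-5p had 14. The miR-322 hairpin ran the other way, with 2492 counts of miR-322-3p and 65 of miR-322-5p.

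The miR-322 arms are the strand that holds the family seed and the strand that does not, both with bases 2 to 8 in capitals.
miR-322-5p: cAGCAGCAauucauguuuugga
miR-322-3p: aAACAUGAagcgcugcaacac
miR-322-5p had 8, 4 and 0 counts in Givinostat mice, 4, 4, 8 and 1 in vehicle mice, 0, 3 and 5 in naive mdx mice, and 5, 14 and 9 in naive wt mice. In CPM the naive mdx mice (0 to 2.72) lay below the naive wt mice (3.17 to 7.90), while in raw counts these groups touched at 5. The Givinostat and vehicle mice overlapped the naive wt mice on both scales. In an edgeR fit without the filter its log2 fold change between naive mdx and naive wt mice was -1.62 (SE 0.69, adjusted p = 0.107), and no comparison passed. miR-322-3p had 155, 161 and 124 CPM in naive mdx mice against 106, 87.4 and 80.0 CPM in naive wt mice. It was higher in every naive mdx mouse, by 0.68 on the log2 scale (SE 0.23, edgeR adjusted p = 0.0266), and the call was lost under upper-quartile scaling (log2 fold change 0.45, adjusted p = 0.111). The 2 arms of this hairpin therefore had fold changes of opposite sign, the one of the 5p arm not passing after adjustment.

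miR-195a-3p moved in the direction of miR-195a-5p. It had 15.7, 24.8 and 44.5 CPM in naive mdx mice against 67.1, 45.7 and 49.4 CPM in naive wt mice, which is -0.92 on the log2 scale (SE 0.35, edgeR adjusted p = 0.0415). In vehicle mice it had 19.5, 31.6, 26.2 and 26.9 CPM, or -1.05 from naive wt mice on the log2 scale (SE 0.33, edgeR adjusted p = 0.0155). Neither call held on library totals (adjusted p = 0.334 and 0.0952). Among the 7 arms listed, 4 were tested, of which 1 was higher and 1 lower in naive mdx mice, 1 lower in vehicle mice, and 0 passed in the 2 comparisons with Givinostat. Of all tested miRNAs, 43.5% passed in naive mdx, 47.3% in vehicle and 34.2% in Givinostat mice against naive wt, and 0.272% between Givinostat and vehicle.

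**Figure D4:**
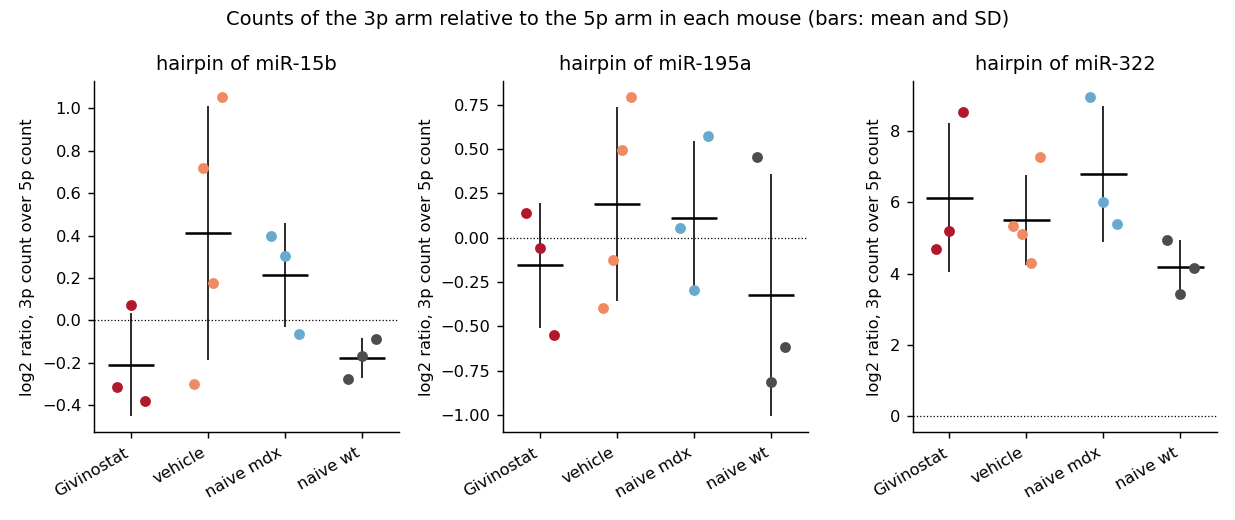
Log2 ratio of the 3p count over the 5p count of 3 hairpins in each mouse, with 0.5 added to each count; points are mice, the line is the mean and the bar the SD. The hairpins of miR-15b and miR-195a scatter around 0, while the ratio of the miR-322 hairpin is above 3 in all 13 mice.

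Another 3 miRNAs have near or shifted seeds and are often grouped with the family. miR-103-3p and miR-107-3p hold the 7 seed bases 1 position earlier, starting at position 1, and miR-503-5p, a neighbour of Mir322 on chromosome X, has a near-identical seed.
miR-103-3p: aGCAGCAUuguacagggcuauga
miR-503-5p: uAGCAGCGggaacaguacugcag
miR-103-3p, made from introns of pantothenate kinase genes and known for effects on insulin signalling in mouse liver and fat, was lower than in naive wt mice in all 3 dystrophic groups. It had 54.6 to 96.1 CPM in Givinostat mice, 37.7 to 95.6 CPM in vehicle mice and 61.5 to 75.0 CPM in naive mdx mice, against 136 to 159 CPM in naive wt mice. Log2 fold changes from naive wt were -0.99, -1.14 and -1.12 in these 3 groups (edgeR adjusted p = 0.0283, 0.00631 and 0.0121), and all 3 calls were lost on library totals. miR-503-5p overlapped in every comparison, with 11.6 to 18.5 CPM in Givinostat mice, 18.5 to 22.8 in vehicle mice, 13.4 to 22.8 in naive mdx mice and 15.5 to 27.9 in naive wt mice. miR-107-3p had 15 counts in all and was not tested.

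Of the 9 other miRNAs of the chromosome X cluster around Mir322, 5 were tested. Between naive mdx and naive wt mice miR-503-3p rose (log2 fold change 0.75, adjusted p = 0.0339 in edgeR), miR-450a-5p fell (-1.03, adjusted p = 0.0202) and 3 did not pass. The miR-503-3p call was lost under upper-quartile scaling (adjusted p = 0.0986 in edgeR) and on library totals without miR-122-5p and the muscle miRNAs (0.0653), and the miR-450a-5p call on library totals (0.217). Between vehicle and naive wt mice miR-503-3p rose (0.83, adjusted p = 0.0155 in edgeR, against 0.0545 on library totals) and 4 did not pass, and 0 of 5 passed in either Givinostat comparison. Against naive wt, 43.5% of all tested miRNAs passed in naive mdx, 47.3% in vehicle and 34.2% in Givinostat mice, and 0.272% between Givinostat and vehicle. The median log2 fold change of the 5 between naive mdx and naive wt mice was 0.61, against -0.86 for the tested members of the seed family.

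Other miRNAs known to restrain the cell cycle were listed for comparison: let-7a, let-7b and let-7c, miR-26a and miR-26b, the miR-29 family, and miR-34a, miR-34c and miR-449a, which act downstream of p53 or E2F1. Of 11 listed, 9 were tested, and between naive mdx and naive wt mice 5 were lower, 3 higher and 1 did not pass, where 16.6% of all tested miRNAs were lower and 26.9% higher. let-7c-5p had 12165 to 14990 CPM in naive mdx mice against 30564 to 31996 CPM in naive wt mice (log2 fold change -1.20). miR-26a-5p had 10001 to 15403 CPM in naive mdx mice against 20542 to 31604 CPM in naive wt mice (-0.94), a call that was lost on library totals (-0.67, edgeR adjusted p = 0.169). miR-29a-3p went the other way, with 5886 to 11202 CPM in naive mdx mice against 2665 to 3616 CPM in naive wt mice (1.42). Between vehicle and naive wt mice 4 of the 9 were lower and 2 higher (23.1% and 24.2% of all tested miRNAs), between Givinostat and naive wt mice 3 were lower and 3 higher (11.7% and 22.6%), and 0 of 9 passed between Givinostat and vehicle. There miR-34c-5p just missed, with 30.4 to 140 CPM in Givinostat mice against 12.6 to 19.2 CPM in vehicle mice. Its log2 fold change was 2.19 (unadjusted p = 0.000283, adjusted p = 0.0521 in edgeR). The untested miR-449a-5p had 2 to 44 counts in Givinostat mice, 0 in vehicle and naive mdx mice and 0 to 1 in naive wt mice. The paper reports miR-449a-5p as significantly raised by Givinostat. On library totals miR-26b-5p and let-7b-5p lost their calls in naive mdx mice as well, so that 2 of the 5 lower ones held, and in vehicle and in Givinostat mice let-7b-5p and let-7c-5p lost theirs, in vehicle mice together with miR-26b-5p. miR-29b-3p, higher in naive mdx mice, lost its call under upper-quartile scaling and on library totals without miR-122-5p and the muscle miRNAs. This list, which shares the cell-cycle role but not the seed, had calls in both directions. In naive mdx and vehicle mice every higher call was of the miR-29 family, and every lower call of a let-7 or miR-26 member. In Givinostat mice miR-34c-5p was higher than in naive wt mice as well.

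miRNAs known from red blood cells also differed from naive wt mice, in both directions and in all 3 dystrophic groups, while miR-16-5p passed in naive mdx and vehicle mice only. Every higher call was of a miR-486a arm, and miR-486a is known from muscle as well as from red cells. Every lower call was of miR-451a or a miR-144 arm. Of the 5 listed, miR-451a, miR-144-3p and miR-144-5p were lower and miR-486a-5p higher in naive mdx than in naive wt mice, and miR-486a-3p did not pass. The miR-451a call was lost on library totals (adjusted p = 0.0756 in edgeR). In vehicle mice 3 of the 5 were lower and 2 higher than in naive wt mice, in Givinostat mice 2 were lower (miR-144-3p and miR-144-5p, both calls lost on library totals and that of miR-144-5p also under upper-quartile scaling) and 1 higher (miR-486a-5p), and 0 of 5 passed in edgeR between Givinostat and vehicle, where miR-451a had a log2 fold change of 0.76 (unadjusted p = 0.00347). Among all tested miRNAs the shares lower and higher than naive wt were 16.6% and 26.9% in naive mdx mice. They were 23.1% and 24.2% in vehicle mice and 11.7% and 22.6% in Givinostat mice. miR-451a, which is processed without Dicer in red cell precursors, had 3393 to 5552 CPM in Givinostat mice, 2365 to 3346 CPM in vehicle mice, 2216 to 2875 CPM in naive mdx mice and 4857 to 6038 CPM in naive wt mice. The summed level of the 5 was 6268 to 7313 CPM in Givinostat mice, 4880.0 to 10330.0 CPM in vehicle mice, 4314 to 5052 CPM in naive mdx mice and 5653 to 7122 CPM in naive wt mice, and no defining marker was at 0. In vehicle mice miR-486a-5p alone ranged from 1430 to 6822 CPM, so the top of that sum rests largely on it. The sum joins miRNAs with opposite calls and is not a measure of red cells alone.

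miR-451a set against miR-23a-3p within a library is commonly used to look for lysed red cells in plasma, and this log2 ratio was -1.54 to -0.69 in Givinostat mice, -2.14 to -1.67 in vehicle mice, -2.68 to -1.80 in naive mdx mice and -0.11 to 0.11 in naive wt mice. Its denominator was not level between the groups: miR-23a-3p was higher than in naive wt mice by 0.76 on the log2 scale in Givinostat mice, 0.90 in vehicle mice and 1.04 in naive mdx mice (edgeR adjusted p = 0.0157, 0.00264 and 0.0016). miR-451a itself differed by -0.24 in Givinostat mice, which did not pass, and by -1.17 in naive mdx mice, so the ratio is not a measure of red cell content alone. It separated naive wt from all other mice, and the ratio and the genotype cannot be told apart in these comparisons. Every Givinostat mouse also lay above every vehicle mouse on this ratio. The ratio and the treatment therefore cannot be told apart between those 2 groups either. With the ratio as a covariate 0 members passed in edgeR between naive mdx and naive wt or between vehicle and naive wt, where 1 and 2 of all tested miRNAs passed. The log2 fold change of miR-16-5p was then 0.03 in both comparisons (SE 0.60 and 0.52), and that of miR-195a-5p was -1.15 (SE 1.05) in naive mdx and -1.29 (SE 0.89) in vehicle mice. Among miRNAs of other blood and vessel cells, miR-142a-3p was lower than in naive wt mice in all 3 dystrophic groups and miR-223-3p did not pass, miR-126a-3p of endothelium was lower in naive mdx mice and miR-126a-5p did not pass, and miR-150-5p of lymphocytes did not pass. These 5 were not refitted under other scalings. The part of these cells in the results for the family was not tested.

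Deviations from the group mean, taken on the log2 CPM of the 13 mice, describe which miRNAs varied together within groups. The points share libraries, depth and scaling, and 305 tested miRNAs that averaged 10 CPM or more were candidates outside the family. miR-15a-5p and miR-15b-5p deviated together (Pearson r = 0.92), and both did so with miR-16-5p (0.75 and 0.79). miR-195a-5p was less tied to miR-16-5p (0.54), and miR-497a-5p hardly at all (0.10), although it lies beside miR-195a-5p in the genome (0.49).

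The neighbours below were picked as the highest r among 305 candidates, so high values are partly a product of that choice. The median r over all candidates ran from -0.03 for miR-497a-5p to 0.15 for miR-195a-5p. The miRNA most like each member outside the family differed. For miR-15b-5p it was miR-210-3p (0.96), a hypoxia-induced miRNA, followed by miR-26a-5p (0.89) and miR-144-5p (0.87). For miR-15a-5p it was also miR-210-3p (0.87), then miR-451a and let-7j (0.81 each). For miR-16-5p the first was miR-144-5p (0.89), of the red cell list, then miR-142a-3p (0.88), a marker of blood cells, and miR-26b-5p (0.87). For miR-195a-5p they were miR-221-5p (0.88), miR-9-5p (0.86) and miR-143-3p (0.85), the last abundant in smooth muscle, and its r to miR-451a was 0.19. The r to miR-451a was 0.81 for miR-15a-5p, 0.77 for miR-15b-5p, 0.68 for miR-16-5p and 0.13 for miR-497a-5p. For miR-497a-5p the highest was miR-186-5p at 0.65, at counts that reached no more than 20 in a library.

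**Figure D5:**
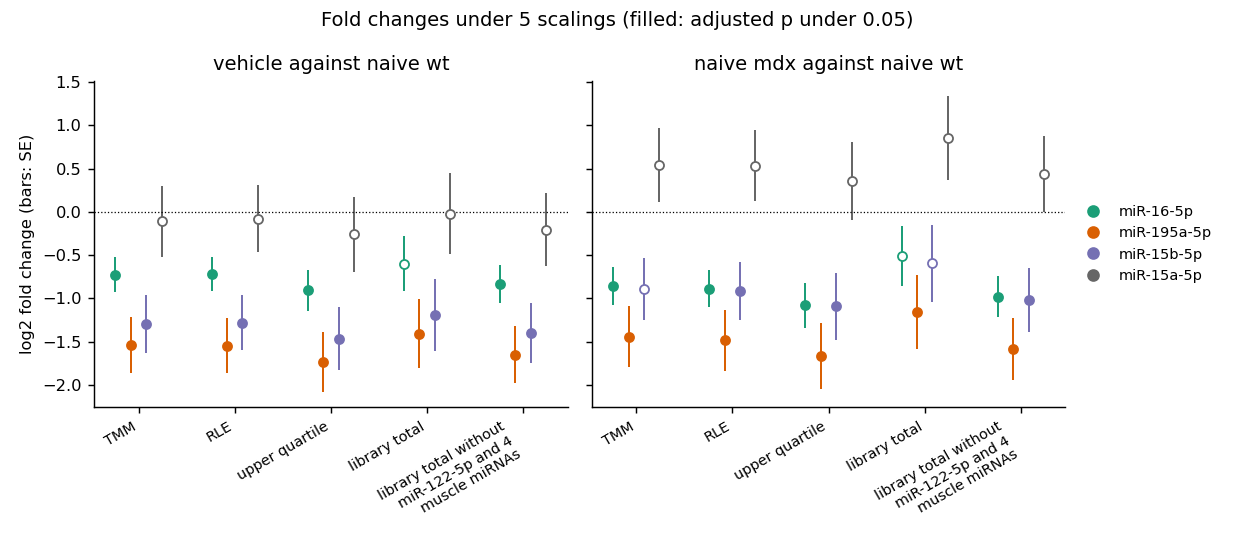
Log2 fold change of 4 members against naive wt under 5 scalings, for vehicle on the left and naive mdx on the right; bars are SE and filled points have an edgeR adjusted p under 0.05. miR-195a-5p stays filled throughout, miR-16-5p loses its call on library totals (-0.60 for vehicle and -0.51 for naive mdx), and miR-15a-5p is open everywhere.

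The scaling shifted all miRNAs together. Relative to TMM, library totals raised the median log2 fold change of all tested miRNAs by 0.39 between naive mdx and naive wt, by 0.20 between vehicle and naive wt and by 0.15 between Givinostat and naive wt. Upper-quartile scaling moved the first of these by -0.23. Between Givinostat and vehicle the largest shift was 0.11. The miR-16-5p log2 fold change of -0.51 on library totals thus stood beside a median of 0.43 over all tested miRNAs, against -0.86 beside 0.04 with TMM.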

How the data were processed

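The authors trimmed small RNA reads (Trimmomatic in the methods, cutadapt 1.4.2 in the submitters' processing notes, beside bcl2fastq 1.37.0), mapped them to GRCm38 with Bowtie 1.0.0 and deposited raw counts for 1907 mature miRNAs, each summed over its isomiRs from plasma libraries made with a ligation kit. The authors also deposited log2 values, which are log2 raw counts shifted by 1 constant for each library and lack values for counts of 3 or fewer; they entered only the limma alternatives, put back on the linear scale with a pseudocount of 1 or 5. Column names gave the mouse of every column (0 left without one).

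Raw counts were filtered with filterByExpr by group (minimum count 10), which kept 368 of 1203 detected miRNAs, scaled by TMM and fitted with 1 mean per group over all 13 libraries in edgeR 4.0.16 (glmQLFit with legacy = FALSE, glmQLFTest) under R 4.3.3. Calls needed an adjusted p (Benjamini-Hochberg, over all tested miRNAs) under 0.05. Each SE was derived from the F statistic of its test. DESeq2 1.42.0, limma 3.58.1, 4 other scalings, other filters, robust and legacy estimation, fits of 2 groups, miR-451a over miR-23a-3p as a covariate, and each library left out in turn were alternatives. The fit was tested on simulated data. The 15 pairs of libraries within groups all differed (lowest chi-square per degree of freedom 104.5).

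The miRNAs named are the members in every comparison, up to 4 per related list by mean count, and the 3 nearest by within-group correlation. Others were picked after their values were seen. The members and lists were chosen with earlier results of these data known. Libraries held 1167161 to 2899315 counts; counting floors of 3 counts cover counting error only. Mice have separate animal numbers, so the spread is between animals. Sequences and hairpin positions were taken from RefSeq (GRCm38.p6), and the position of Mir15a from GENCODE on the same build.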

Additional observations from a re-analysis of the deposited data

Results flagged for a closer look

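One value stood far from the other mice of its group. Vehicle mouse 41 had 42.7 CPM of miR-15b-3p, while the other vehicle mice had 23.7, 26.2 and 25.6 CPM. Of 16 sets of 4 vehicle values examined, 1 was set apart in this way, and chance alone gives about 1 in 20. The same mouse had 25.7 CPM of miR-15b-5p, inside the range of its group (12.2 to 29.3 CPM). miR-15b-3p is not a member of the seed family, and it passed in no comparison.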

How the results depend on the processing

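No paired analysis was possible because the groups share no animal numbers. Between vehicle and naive wt mice miR-195a-5p and miR-15b-5p passed in 21 of 22 alternatives each, miR-497a-5p in 20 of 21 and miR-16-5p in 17 of 22; between naive mdx and naive wt mice miR-195a-5p passed in 20 of 21 and miR-16-5p in 17 of 21. The number of members called between naive mdx and naive wt was 1 on library totals and in limma at either pseudocount, 0 with the covariate of miR-451a over miR-23a-3p, and 2 to 3 as each mouse was left out. Between vehicle and naive wt it was 0 with the covariate, and 4 as each mouse was left out. Between Givinostat and naive wt it was 1 in DESeq2 and 1 in edgeR on these 2 groups alone, and otherwise 0.

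All miRNAs called between Givinostat and vehicle, 1 here, were 3 under upper-quartile scaling, 2 under library totals, library totals without miR-122-5p and 4 muscle miRNAs, robust estimation and DESeq2 on 4 or 2 groups, 6 without a filter, and 0 with the stricter filter (a mean of 10 CPM or more), with the covariate and in limma. They were 0 to 5 with each mouse left out, 5 without Givinostat mouse 31, 2 without mouse 35 and 0 without Givinostat mouse 34 or any of the 4 vehicle mice. With the covariate all miRNAs called were 1 between naive mdx and naive wt, 2 between vehicle and naive wt and 22 between Givinostat and naive wt. The cause was not tested.

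Signs turned only for members that had not passed or with the covariate. With the covariate the log2 fold change between naive mdx and naive wt was 0.58 for miR-15b-5p and 0.0288 for miR-16-5p, between vehicle and naive wt 1.53 for miR-15a-5p and 0.0324 for miR-16-5p, between Givinostat and naive wt 0.76 for miR-15a-5p and 0.27 for miR-15b-5p, and between Givinostat and vehicle -0.77 for miR-15a-5p and -0.0493 for miR-16-5p. The log2 fold change of miR-15a-5p between Givinostat and naive wt was 0.0532 on library totals, 0.0283 without a filter, 0.0475 with the stricter filter and 0.0305 and 0.0284 in limma at a pseudocount of 1 and 5, and -0.29 to 0.21 with each mouse left out. Between vehicle and naive wt it was 0.0261 with the stricter filter and -0.27 to 0.27 with each mouse left out, and between Givinostat and vehicle -0.24 to 0.32. Between vehicle and naive mdx the log2 fold change of miR-16-5p was -0.0926 on library totals and -0.0858 and -0.0855 in limma at a pseudocount of 1 and 5, and that of miR-195a-5p -0.34 to 0.14 with each mouse left out.

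As a share of the library without miR-122-5p and the 4 muscle miRNAs, the family sum was 0.203% (Givinostat), 0.160% (vehicle), 0.149% (naive mdx) and 0.293% (naive wt). Under the 4 other scalings, added after the data were seen, 140 of 164 checks of the calls named from the other lists held, 24 lost the call and 0 turned. Groups of 3 and 4 mice and counts of at most 20 for miR-497a-5p and 14 for miR-322-5p limit what could be detected.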
